A study of Mus musculus with 6 samples.

Results

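In nuclei of mouse cardiomyocytes (CMs) that overexpressed the YAP variant YAP6SA, 37 of the 54532 genes in the count table stood higher than in both GFP and YAP5SA overexpression (OE) nuclei. The genes were chosen on CPM, a gene's raw count divided by all gene counts of its library and multiplied by 1000000. A gene was taken when its CPM averaged at least 5 in the 2 YAP6SA libraries and when, within each of the 2 batches, its YAP6SA CPM was at least 1.4 times that of GFP and at least 1.4 times that of YAP5SA. The comparisons of YAP6SA with GFP and with YAP5SA therefore chose the genes, and their levels are given as a description with no test. Of the 54532 genes, 10905 reached the CPM minimum in YAP6SA. The 37 genes included the skeletal actin gene *Acta1*, the creatine kinase gene *Ckm*, the muscle F-box gene *Fbxl22*, the kinase gene *Sik1* and a series of antisense and other noncoding transcripts.

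Wildtype ICR mice received 1e+11 viral genomes of AAV9 under the skin at 6 d of age, and hearts were taken at 9 d, which is 3 d after the injection. The virus carried GFP, YAP5SA or YAP6SA behind the cardiac troponin T (cTnT) promoter, which limits expression to CMs. All 3 groups, the GFP controls included, carried AAV9 and this promoter. A pair of hearts was collected for each virus, and CM nuclei were pulled down on beads with an antibody to PCM-1, so that the RNA measured was poly-A RNA of nuclei. Each group had 2 libraries, 1 in each batch, and libraries of the same replicate number share a batch. The sources do not say whether each library came from a single heart, so p-values measure the spread between these libraries. The gene counts ran from 14552847 to 19615627 per library, and 3 counts, the number that a gene read at 0 could still have, were 0.153 to 0.206 CPM. *Yap1* itself was read at 140.6 and 121.4 CPM in GFP, 122.2 and 125 in YAP6SA and 143.5 and 106.3 in YAP5SA. The groups overlapped, so the overexpression is not seen in these counts. Whether reads of the AAV9 cassette were counted on *Yap1* was not tested.

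YAP is the transcriptional coactivator at the end of the Hippo pathway. The LATS kinases phosphorylate serines of YAP and keep it in the cytoplasm, and YAP that reaches the nucleus acts mostly through TEAD transcription factors. In YAP5SA the LATS sites are changed to alanine, which frees the protein from this control, and YAP6SA carries a further serine-to-alanine change in the region that binds TEAD. YAP is known in the heart for the growth and cell cycle activity of fetal and newborn CMs, which fades soon after birth. In bulk nuclei, a lower share of a cell type and less RNA per nucleus cannot be told apart. The 10 CM markers were all read in every library, and their summed level was 57083 and 71501 CPM in YAP6SA, 61618 and 76285 in GFP, and 51607 and 37870 in YAP5SA. Fibroblast markers, all 10 of them read as well, summed to 1919 and 1033 CPM in YAP6SA against 1473 and 872 in GFP and 1667 and 1026 in YAP5SA. Endothelial markers summed to 896 and 569 CPM in YAP6SA, smooth muscle markers to 3012 and 2764, and macrophage markers to 102 and 123. In GFP the same 3 lists summed to 737 and 520, to 1607 and 1506, and to 79.2 and 107 CPM, and in YAP5SA to 798 and 633, to 3064 and 2246, and to 115 and 169 CPM. Mural markers summed to 356 to 577 CPM over the 6 libraries, nerve and glia markers, with *Th* at 0, to 54.2 to 69.5, and epicardium and fat markers to 28.7 to 54.7 in GFP and YAP6SA and to 126 and 183 in YAP5SA. None of the 37 genes was in any of the 8 marker lists, and the part of these cells in the levels below was not tested.

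The same rule turned to the other groups chose 39 genes that peaked in GFP and 1163 that peaked in YAP5SA. Its mirror image, lower by the same fold than both other groups in each batch, chose 16 genes for YAP6SA, 141 for GFP and 352 for YAP5SA. The smallest of a gene's 4 ratios was under 1.5 in 15 of them and at least 2 in *Acta1* alone, and a further 36 genes at the CPM minimum had a smallest ratio from 1.3 to 1.4. Just inside the limit were *Irf2bp2* and *Yjefn3*, both with a smallest ratio of 1.41, and *Gm49064* with 1.42, and just outside it were *Ppp1r3b*, *Tapbp* and *Dnajb5*. At the CPM limit, *Olfr1033*, *Gm31663* and *Smagp* averaged 5.81, 6.30 and 6.45 CPM in YAP6SA, whereas *Crip3*, *Tgfbr3l* and *BC024063*, which met the ratios, averaged 4.86, 4.71 and 4.28 CPM and were left out.

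**Figure D1:**
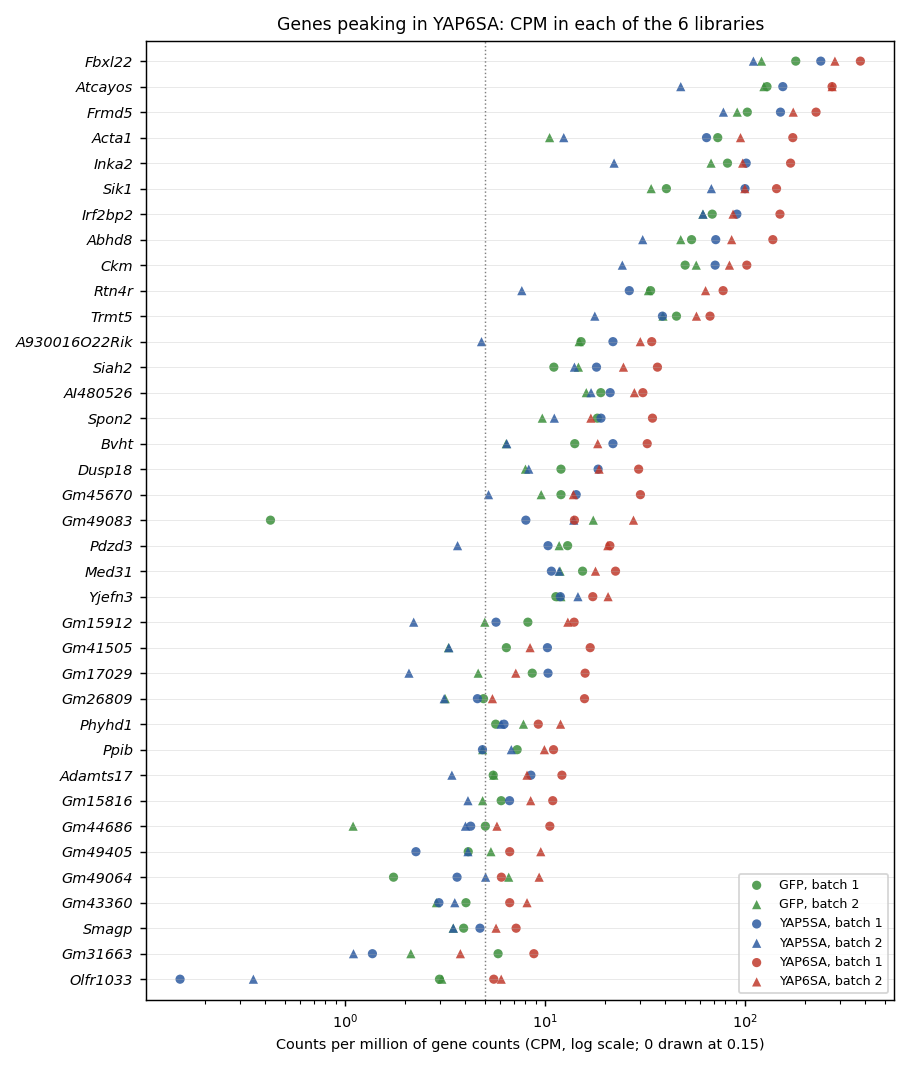
Each line is 1 of the 37 genes, ordered by mean CPM in YAP6SA, and each point is 1 library on a log axis of CPM (circles batch 1, triangles batch 2; green GFP, blue YAP5SA, red YAP6SA; the dotted line is the CPM minimum of 5). The red points lie to the right within each batch, as the rule asked, and in 12 of the genes a red point lies below the highest green or blue point.

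Sequence upstream of the start was at hand from RefSeq (GRCm38.p6) for 21 of the 37 genes, and 10 motifs were searched on both strands in the 300 bases that run from 250 before each start to 50 after it. *Acta1* and *Fbxl22*, which are both muscle genes, were the members whose windows held a CArG box, the element bound by serum response factor (SRF), and both also held GGAATG, the element bound by TEAD factors. They are shown with *Abhd8*, which held the TEAD motif without a CArG box, and *Trmt5*, which held the full cAMP response element TGACGTCA. The windows are chr8:123894776-123895025 (minus strand) for *Acta1*, chr9:66514594-66514843 (minus strand) for *Fbxl22*, chr8:71463658-71463907 (minus strand) for *Abhd8* and chr12:73286712-73286961 (minus strand) for *Trmt5*. Each is written 5′ to 3′ on the gene's strand, and holds the 250 bases before the start, in which capitals mark the matches to the CArG box, the TEAD motif, the full cAMP response element and the TATA box. The TEAD motif, where it lies on the other strand, reads CATTCC in these runs.
Acta1: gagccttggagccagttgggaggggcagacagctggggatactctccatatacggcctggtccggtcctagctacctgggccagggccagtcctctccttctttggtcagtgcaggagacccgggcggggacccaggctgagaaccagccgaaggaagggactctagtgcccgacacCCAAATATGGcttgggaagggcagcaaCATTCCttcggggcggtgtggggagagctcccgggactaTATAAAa
Fbxl22: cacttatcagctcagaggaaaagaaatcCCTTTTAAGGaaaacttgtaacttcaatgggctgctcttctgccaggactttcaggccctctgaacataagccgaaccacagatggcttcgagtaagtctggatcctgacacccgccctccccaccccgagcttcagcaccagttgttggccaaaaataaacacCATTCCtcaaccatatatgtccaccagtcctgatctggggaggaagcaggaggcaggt
Abhd8: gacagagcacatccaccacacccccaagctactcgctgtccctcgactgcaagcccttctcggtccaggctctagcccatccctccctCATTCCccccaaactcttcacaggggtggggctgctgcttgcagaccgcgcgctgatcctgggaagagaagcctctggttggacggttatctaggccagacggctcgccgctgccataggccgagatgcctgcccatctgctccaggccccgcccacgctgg
Trmt5: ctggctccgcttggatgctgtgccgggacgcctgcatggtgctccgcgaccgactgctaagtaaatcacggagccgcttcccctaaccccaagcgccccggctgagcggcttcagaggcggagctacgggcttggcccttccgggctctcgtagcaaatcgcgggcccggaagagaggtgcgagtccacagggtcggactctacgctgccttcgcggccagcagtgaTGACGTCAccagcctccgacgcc
In *Acta1* the CArG box spanned bases -73 to -64 from the RefSeq start and the TEAD motif bases -46 to -41. A TATA box lay at -7 to -2 from it. The start of *Acta1* in the gene annotation, base 123894751 on the minus strand, lies downstream of that RefSeq start. Counted from the annotated start, these elements lie farther upstream. In *Fbxl22* the CArG box lay at -222 to -213 and the TEAD motif at -58 to -53. Over the full 300 bases, the CArG box was found in 2 of the 21 genes (9.52%). It was found in 1.63% of the 8475 genes at the CPM minimum that had such a window, and in 1.81% of all 27025 genes that had one. The pairs of shares below are over these same sets. The TEAD motif was found in 4 of 21 (19%), the fourth being *Frmd5*, beside 14.3% and 16.6%. The cAMP response element core TGACG, which the full element contains, was found in 6 of 21 (28.6%), beside 37% and 23%. The windows of the members held no match to the NBRE AAAGGTCA, the FOXO site GTAAACA or the MEF2 site. Of the genes at the CPM minimum that had a window, 1.14%, 2.96% and 0.673% held them. The letters of the TATA box, TATAAA, were found on either strand in *Acta1*, *Atcayos* and *Inka2* (14.3%, beside 8.57% and 15.7%). In *Atcayos* they lay at -28 to -23 on the gene's strand. In *Inka2* the match before the start lay at -210 to -205 on the other strand. The E-box CACGTG was found in *Fbxl22*, *Med31* and *Adamts17* (14.3%, beside 12% and 8.09%), the match of *Fbxl22* lying outside the stretch printed, and the AP-1 site in *Gm17029* and *Phyhd1* (9.52%, beside 4.24% and 5.95%).

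*Acta1* (ENSMUSG00000031972, chromosome 8 of GRCm38, 123891769 to 123894751, minus strand) encodes skeletal muscle alpha-actin, which newborn CMs express beside the cardiac form. It was read at 174 and 95.3 CPM in the YAP6SA libraries of batches 1 and 2, at 73.3 and 10.6 in GFP, and at 64.4 and 12.4 in YAP5SA. Within each batch YAP6SA stood highest, and both YAP6SA libraries lay above the other 4. The ratio to GFP was 2.37 in batch 1 and 9.01 in batch 2, so the gap was wider in batch 2. GFP and YAP5SA lay close together in both batches. *Acta1* is the only member in the list of SRF and MRTF cytoskeletal targets. Of the 35 of these tested, 21 were higher and 1 was lower in YAP5SA than in GFP, beside 12.8% and 9.18% of all genes.

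*Ckm* encodes muscle creatine kinase, which buffers ATP in the sarcomere and is the 1 member in the skeletal muscle list of 28 genes. Its level was 102 and 83.8 CPM in YAP6SA, 50.3 and 57.2 in GFP, and 71.1 and 24.4 in YAP5SA. Both YAP6SA libraries were above the other 4, whereas YAP5SA was above GFP in batch 1 and below it in batch 2. *A930016O22Rik* is annotated as an antisense transcript whose whole span (chromosome 7, 19417466 to 19421417, minus strand) lies inside that of *Ckm*. It was read at 34.3 and 30.04 CPM in YAP6SA, 15.2 and 14.9 in GFP, and 21.9 and 4.83 in YAP5SA, the same order as for *Ckm* in batch 1 and in batch 2. The libraries were not directional, so the strand of a read does not tell a gene from its antisense partner. Where exons of both overlap, reads are ambiguous between the genes and are not in the counts. Where only 1 of this pair has an exon, whether reads of the other were counted on it was not tested. *Mark4*, which lies next to *Ckm* and was picked as its neighbour, was at 93.9 and 110 CPM in YAP6SA and 108 and 121 in GFP.

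*Fbxl22* encodes an F-box protein of striated muscle that directs Z-disc proteins to ubiquitin ligase, and it had the highest mean level of the 37 genes, 331 ± 68.1 CPM (SD, n = 2) in YAP6SA. The values were 379 and 282 CPM in YAP6SA, 180 and 121 in GFP, and 240 and 110 in YAP5SA. YAP6SA stood above every other library, and YAP5SA overlapped GFP. *Herc1* overlaps it on the other strand and was at 165 and 163 CPM in YAP6SA and 187 and 201 in GFP, without the same order. *Frmd5*, a gene for a FERM domain protein of cell junctions, was at 227 and 175 CPM in YAP6SA, 103 and 91.7 in GFP and 151 and 78.2 in YAP5SA. *Bvht*, a long noncoding RNA known from the commitment of precursors to the heart lineage, was at 32.5 and 18.4 CPM in YAP6SA, 14.1 and 6.42 in GFP and 21.9 and 6.46 in YAP5SA. The YAP5SA library of batch 1 was above the YAP6SA library of batch 2.

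*Sik1* (ENSMUSG00000024042, chromosome 17, 31844250 to 31855804, minus strand) encodes a salt-inducible kinase, which cAMP signalling induces and which restrains the coactivators of CREB. It was read at 144 and 100.1 CPM in YAP6SA, 40.6 and 34.0 in GFP and 100.3 and 68.1 in YAP5SA. It was 1 of 9 genes that stood in this order in both batches, with GFP lowest, YAP5SA between and YAP6SA highest. The rule set YAP6SA highest, and YAP5SA was above GFP in both batches in 41.9% of all genes at the CPM minimum. In *Irf2bp2*, *Smagp*, *Gm41505* and *Bvht*, which are among the 9, YAP5SA was nearly level with GFP in batch 2, with ratios of at most 1.006. The YAP5SA library of batch 1 and the YAP6SA library of batch 2 overlapped. *Sik1* was the only member among the 35 genes listed as CREB targets and NR4A factors. Of the 30 of these that were tested, 8 were higher and 2 lower in YAP5SA than in GFP, beside 12.8% and 9.18% of all genes. Their median log2 fold change was -0.04, beside -0.0031 for all genes.

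The genes described next encode receptors, enzymes and regulators of transcription, and none of them was in a list of processes. *Rtn4r*, which encodes the receptor for the axon growth inhibitor Nogo, was at 78.0 and 63.7 CPM in YAP6SA, 33.8 and 33.0 in GFP and 26.5 and 7.68 in YAP5SA. Its GFP libraries were nearly equal and both below YAP6SA. *Siah2*, a RING ubiquitin ligase gene, was at 36.6 and 24.7 CPM in YAP6SA, 11.1 and 14.7 in GFP and 18.1 and 14.1 in YAP5SA. *Irf2bp2*, which encodes a corepressor that binds IRF2, was at 150 and 87.4 CPM in YAP6SA, 68.8 and 61.8 in GFP and 91.3 and 61.8 in YAP5SA, so that the YAP5SA library of batch 1 was above the YAP6SA library of batch 2. *Inka2*, an inhibitor of the kinase PAK4, was at 170 and 97.6 CPM in YAP6SA, 82.0 and 67.8 in GFP and 102 and 22.2 in YAP5SA, again with 1 YAP5SA library above 1 YAP6SA library. *Dusp18*, a dual-specificity phosphatase gene, was at 29.5 and 18.7 CPM in YAP6SA, 12.1 and 8.01 in GFP and 18.5 and 8.32 in YAP5SA. *Med31*, a subunit of Mediator, was at 22.6 and 17.9 CPM in YAP6SA, 15.5 and 11.9 in GFP and 10.8 and 11.8 in YAP5SA.

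*Abhd8*, a gene for an alpha/beta hydrolase domain protein, was at 138 and 86.0 CPM in YAP6SA, 54.2 and 47.9 in GFP and 71.6 and 30.9 in YAP5SA, without overlap. *Trmt5*, which methylates transfer RNA, was at 67.0 and 57.4 CPM in YAP6SA, 45.6 and 39.0 in GFP and 38.8 and 17.8 in YAP5SA, also without overlap. *Spon2* and *Adamts17*, which encode a secreted matrix protein and a secreted metalloprotease, averaged 25.8 ± 12.4 and 10.2 ± 2.85 CPM in YAP6SA (SD, n = 2), and in both the highest of the other libraries lay above the lower YAP6SA library. *Ppib*, an endoplasmic reticulum cyclophilin gene, was at 11.1 and 9.96 CPM in YAP6SA and at 7.28 and 4.89 in GFP. *Pdzd3*, a PDZ scaffold gene, was at 21.2 and 20.7 CPM in YAP6SA, 13.01 and 11.8 in GFP and 10.4 and 3.66 in YAP5SA. *Phyhd1*, *Yjefn3*, *Smagp* and the gene model *Gm49405* averaged between 6.45 and 19.1 CPM in YAP6SA and did not overlap. *Olfr1033*, an olfactory receptor gene, had 109 and 104 counts in YAP6SA, 56 and 50 in GFP, and 0 and 6 in YAP5SA, so it was nearly unread in YAP5SA.

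Over the 37 genes, both YAP6SA libraries lay above all 4 others in 25 genes, beside 4.4% of all genes at the CPM minimum. The rule used these libraries, so nothing is read from this count. The 12 that overlapped were *Inka2*, *Gm17029*, *Spon2*, *Adamts17*, *Gm31663*, *Gm45670*, *Irf2bp2*, *Gm49083*, *Gm49064*, *Gm41505*, *Sik1* and *Bvht*. In the fit of all genes, described with the next comparison, 1 of the 37 (*Sik1*) was called higher in YAP6SA than in GFP and 26 were called higher in YAP6SA than in YAP5SA, beside 0.0450% and 5.68% of all genes tested in these directions. The first count was 24 when only the 4 libraries of the comparison were fitted, again with batch, beside 1.49% of all genes called higher. These comparisons chose the genes, so the calls are no test of them and nothing is read from the counts. Together the 37 genes took 0.236% and 0.176% of all gene counts in YAP6SA, 0.108% and 0.0886% in GFP and 0.136% and 0.0646% in YAP5SA.

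The rule set no order between YAP5SA and GFP, and this comparison was fitted. It did use the libraries of both groups, and held both below YAP6SA by the fold in each batch. This kept out genes that were far higher in YAP5SA, and genes with a high level in GFP that fell in YAP5SA. Nothing is therefore read from the shares of higher and lower genes below or from their median. Counts were fitted for the 13323 genes that exceeded a median of 1 on the log2 CPM scale in some group, all 37 among them, with edgeR's quasi-likelihood test, terms for group and batch and TMM scaling, and FDR is the p-value adjusted by Benjamini-Hochberg across this whole set, called under 0.05. *Sik1* was higher in YAP5SA than in GFP, and *Olfr1033*, *Gm31663* and *Rtn4r* were lower. This is 1 higher gene of 37 beside 12.8% of all genes tested, and 3 lower (8.11%) beside 9.18%. At an unadjusted p under 0.05, 1 gene was higher and 6 were lower, beside 19.4% and 17% of all genes. The lower count was 11 without the YAP5SA library of batch 1, beside 17.1% of all genes. Without the GFP library of batch 2 it was 1, with 2 higher, beside 1.34% lower and 4.2% higher of all genes. The median log2 fold change of the 37 was -0.14, beside -0.0031 for all genes.

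*Sik1* was higher in YAP5SA by 1.06 on the log2 scale (standard error 0.16, edgeR FDR 0.00215), and higher in both batches, with a ratio to GFP of 2.47 and 2.00. *Olfr1033* fell by 4.12 (standard error 0.75, FDR 0.00511), a value that depends on how the 0 of 1 library is treated, since the YAP5SA libraries held 0 and 6 counts and the GFP libraries 56 and 50. It was -3.25 without the YAP5SA library of batch 1 and -8.65 without that of batch 2, and was called in both. *Gm31663*, a transcribed pseudogene whose reads could be shared with a near copy, was at 5.84 and 2.14 CPM in GFP, 1.37 and 1.10 in YAP5SA and 8.82 and 3.78 in YAP6SA, and was lower in YAP5SA than in GFP with a log2 fold change of -1.63 (standard error 0.45, FDR 0.0295). Without the GFP library of batch 1 its FDR was 0.203, without the GFP library of batch 2 it was 0.0858, without the YAP6SA library of batch 1 it was 0.0526 and without the YAP5SA library of batch 1 it was 0.132. *Rtn4r* had a log2 fold change of -1.22 (standard error 0.36, FDR 0.0372), which was -0.46 (FDR 0.141) without the YAP5SA library of batch 2 and -0.74 (FDR 0.272) without the GFP library of batch 2. In the fit of only the 4 libraries of GFP and YAP5SA, *Gm31663* had an FDR of 0.0555 and was not called. Without the batch term the FDR was 0.12 for *Rtn4r* and 0.0722 for *Gm31663*, and neither was called. *Trmt5* missed the threshold, with a log2 fold change of -0.74 (FDR 0.0525). *Acta1* had a log2 fold change of -0.12 (standard error 0.36, FDR 0.846).

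The position of YAP5SA against GFP depended on the batch in many of these genes. In batch 1 YAP5SA was above GFP in 24 of the 37, with a median ratio of 1.19, and in batch 2 it was above GFP in 13, with a median ratio of 0.844. Over all 10905 genes at the CPM minimum the medians were 1.01 and 1.08. *Fbxl22*, *Atcayos*, *Ckm*, *Inka2*, *Abhd8* and *Frmd5* were among the 15 genes in which YAP5SA was above GFP in batch 1 and below it in batch 2, a pattern seen in 9.82% of all genes at that level. The opposite switch was seen in 4 genes (15.5% of all), 9 genes were above GFP in both batches (41.9%) and 9 were below it in both (32.8%). *Inka2* had a ratio of 1.24 in batch 1 and 0.327 in batch 2, *Atcayos* 1.20 and 0.384, and *Ckm* 1.41 and 0.427. Whether YAP5SA differed from GFP differently in the batches was not tested, since each batch had 1 library per group.

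**Figure D2:**
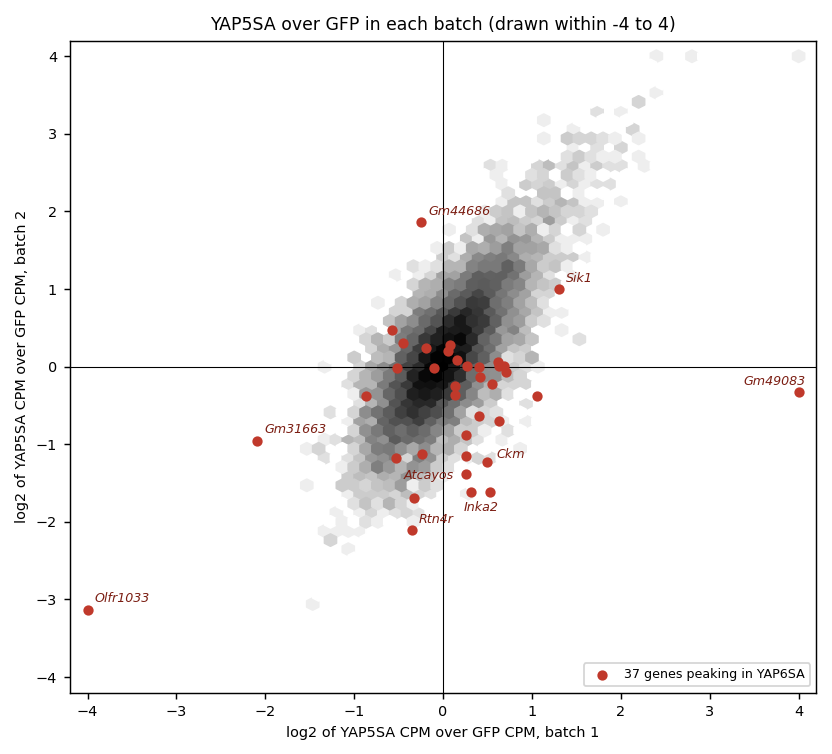
The axes give the log2 ratio of YAP5SA CPM to GFP CPM in batch 1 (horizontal) and batch 2 (vertical), with all genes at the CPM minimum in grey (darker for more genes) and the 37 genes in red; values outside -4 to 4 are drawn at the edge. The lower right quadrant holds the 15 genes above GFP in batch 1 and below it in batch 2, and *Sik1* lies in the upper right with ratios of 2.47 and 2.00.

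The batch term itself, which the rule did not use, was tested in the same fit. Of the 37 genes, 1 was called. *Acta1* was lower in batch 2 by a log2 fold change of -1.92 (standard error 0.30, edgeR FDR 0.0493), beside 0.143% of all genes called lower, and with DESeq2's size factors in the same test, where 0.173% of all genes were called in either direction, it was not called. No gene of the 37 was called higher in batch 2, beside 0.0600% of all. At an unadjusted p under 0.05, 17 were lower and 2 higher, beside 6.03% and 6.1% of all genes. DESeq2 called 6 over both directions, beside 1.38% of all genes. The count of 1 over both directions was 2 without either GFP library (0.27% of all genes in each case), 4 without the YAP5SA library of batch 1 (4.32% of all) and 6 without that of batch 2 (4.47% of all). The median log2 fold change between batches was -0.47, beside 0.0012 for all genes. The ratio of batch 2 to batch 1 had a median of 0.776 in YAP6SA, 0.846 in GFP and 0.585 in YAP5SA, beside 0.963, 0.928 and 1.00 over all genes at the CPM minimum. It was under 1 in 29 of the 37 genes in YAP6SA, 28 in GFP and 29 in YAP5SA, beside 57.1%, 64.1% and 49.4% of all. In *Inka2* the YAP5SA libraries were at 0.218 and the YAP6SA libraries at 0.576 of their batch 1 level. *Gm49083* and *Gm49064*, both intergenic RNAs, went the other way, with 8 and 286 counts of *Gm49083* in the GFP libraries of batches 1 and 2.

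To read the pattern in libraries that had not chosen it, the rule was applied to 1 batch at a time. Batch 1 alone chose 276 genes, and 37 of these (13.4%), the genes described here, met the fold over both groups in batch 2, beside 2.1% of all genes at that level. Batch 2 alone chose 258 genes, and 39 of these (15.1%) met it in batch 1, beside 1.97%. YAP6SA was the highest of the 3 groups in the other batch in 46.7% and 55.4% of the genes chosen, beside 23.9% and 25.8% of all. The median ratio of the chosen genes in the other batch was 1.09 and 1.15 to GFP and 1.35 and 1.29 to YAP5SA. In most genes chosen in 1 batch, then, the fold was not met in the other. By the rule, the 37 genes met it in both batches. These shares therefore describe the genes chosen in 1 batch and are no test of the 37. For genes that peaked in GFP the shares were 12.5% and 22%, beside 1.55% and 2.54% of all genes. For genes that peaked in YAP5SA they were 84.4% and 41.3%, beside 24% and 12.1% of all genes. In YAP6SA the share was close to that in GFP for genes chosen in batch 1 and lower for genes chosen in batch 2. The difference of these shares was not tested.

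**Figure D3:**
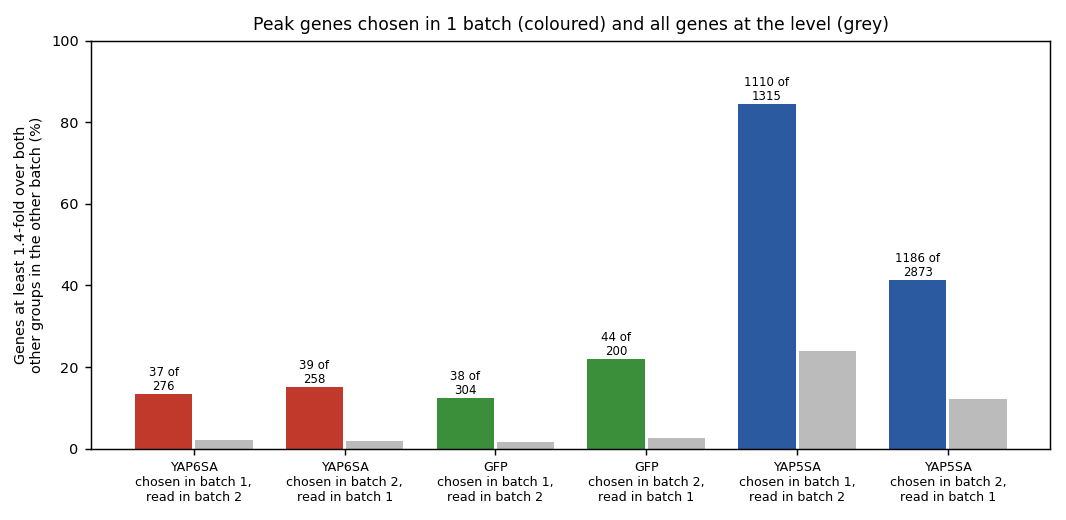
Coloured bars give the percentage of genes chosen by the rule in 1 batch that met the 1.4-fold limit over both other groups in the other batch, and grey bars give the same percentage over all genes at the CPM minimum. The YAP6SA bars stand at 13.4% and 15.1%, next to 12.5% and 22% for GFP and 84.4% and 41.3% for YAP5SA.

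Noncoding transcripts made up a large share of the genes. Of the 37, 22 (59.5%) were protein-coding, beside 95.6% of the 10903 annotated genes at the CPM minimum. Antisense transcripts numbered 7 (18.9% beside 0.743%) and long intergenic RNAs 5 (13.5% beside 1.17%), and the rest were 1 processed transcript, 1 transcript of the class TEC, which awaits experimental support, and 1 pseudogene. Among genes of low level, from 5 to 35 CPM, 92.8% of all were protein-coding, and of the 26 members in that range 12 (46.2%) were. Genes that peaked in GFP by the same rule were 59% protein-coding, with 1 antisense transcript among 39, whereas genes that peaked in YAP5SA were 95.4% protein-coding. The span of the 37 genes had a median of 7944 bases, beside 24643 for all genes at the level.

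**Figure D4:**
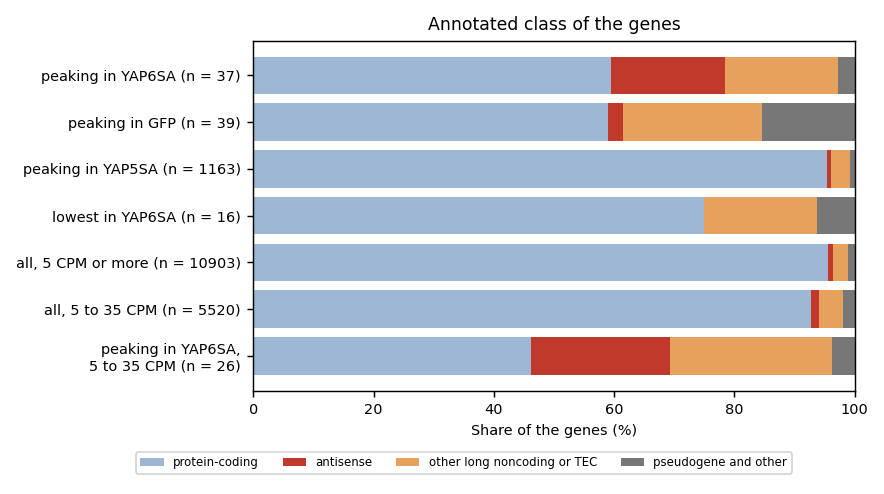
Bars give the annotated class of each set of genes as a share of the set in percent. Protein-coding genes make up 59.5% of the genes peaking in YAP6SA and 59% of those peaking in GFP, beside 95.4% of those peaking in YAP5SA, and antisense transcripts make up 18.9%, 2.56% and 0.688%.

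The antisense transcripts were *Atcayos*, *A930016O22Rik*, *Gm15816*, *Gm41505*, *Gm17029*, *Gm45670* and *Gm44686*. *Atcayos* (chromosome 10, 81194609 to 81210877, plus strand) was the second most abundant of the 37 genes. It was at 273 CPM in both YAP6SA libraries, at 129 and 125 in GFP and at 155 and 47.9 in YAP5SA, and no YAP6SA library overlapped the others. It lies across *Atcay* and *Nmrk2* on the other strand, which were picked as its partners. *Atcay*, which encodes the neuronal protein caytaxin, was at 15.96 and 10.6 CPM in YAP6SA, 11.6 and 4.95 in GFP and 6.73 and 2.33 in YAP5SA. *Nmrk2*, a nicotinamide riboside kinase gene of muscle, was at 72.3 and 25.5 CPM in YAP6SA, 26.9 and 15.8 in GFP and 80.7 and 42.5 in YAP5SA. *Nmrk2* was higher in YAP5SA than in GFP by 1.41 on the log2 scale (FDR 0.00186), whereas *Atcayos* was at -0.56 (FDR 0.298). The order of the groups in *Atcayos* was not that of *Nmrk2*, and it was that of *Atcay* in batch 2 and not in batch 1. Whether reads of either partner were counted on *Atcayos* was not tested.

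*Gm15816* lies inside *Ank1*, the gene for ankyrin 1, and was at 11.0 and 8.50 CPM in YAP6SA, 6.05 and 4.89 in GFP and 6.67 and 4.13 in YAP5SA. *Ank1* was at 532 and 438 CPM in YAP6SA, 423 and 410 in GFP and 339 and 144 in YAP5SA, and was lower in YAP5SA than in GFP by a log2 fold change of -0.98 (FDR 0.0294), where *Gm15816* had -0.14 (FDR 0.795). *Gm17029* overlaps *Pex14*, *Gm45670* overlaps *Dhx32* and *Gm44686* overlaps *Chd2*. These partners had YAP6SA to GFP ratios of 1.14 and 1.11, 1.05 and 1.06, and 1.02 and 0.943 in batches 1 and 2, next to 1.84 and 1.54, 2.50 and 1.45, and 2.10 and 5.24 for the antisense transcripts. *Gm43360* lies on the same strand inside *Atp2a2*, the calcium pump of the sarcoplasmic reticulum, and was at 6.68 and 8.15 CPM in YAP6SA and 4.04 and 2.87 in GFP, whereas *Atp2a2* was at 4218 and 3797 and at 3606 and 3996 CPM. *Gm49405* overlaps *Doc2g* on the same strand, and *Doc2g* had YAP6SA to GFP ratios of 0.956 and 0.977. In all, 13 of the 37 (35.1%) overlapped another gene of at least 1 CPM, beside 24.8% of all, and 10 (27%) did so on the other strand, beside 21.7%. How unstranded reads of an abundant partner bear on these counts was not tested.

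**Figure D5:**
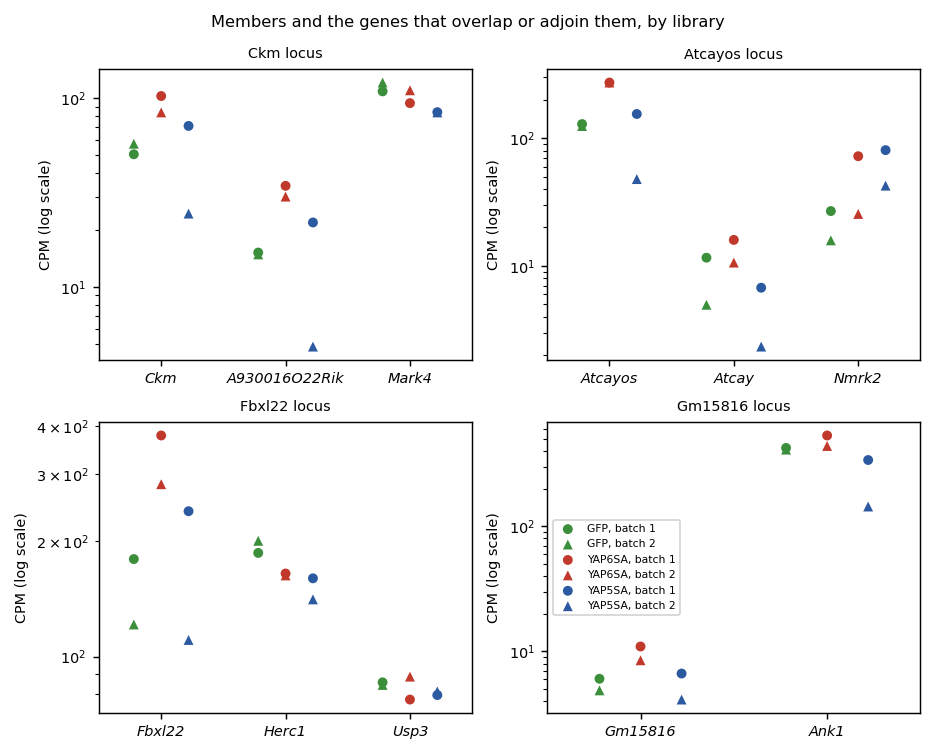
Each panel gives the CPM on a log axis, in every library, of 1 or 2 of the 37 genes and of the genes that overlap or adjoin them (circles batch 1, triangles batch 2; green GFP, red YAP6SA, blue YAP5SA). *Ckm* and *A930016O22Rik* share 1 order of libraries within each batch, whereas *Atcayos* and *Nmrk2*, and *Fbxl22* and *Herc1*, do not.

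Among the other noncoding RNAs, *Gm26809* was at 15.8 and 5.47 CPM in YAP6SA, 4.94 and 3.18 in GFP and 4.60 and 3.14 in YAP5SA. *Gm15912* lies 53 bases from *Tppp* and was at 14.02 and 13.04 CPM in YAP6SA, 8.23 and 5.01 in GFP and 5.70 and 2.21 in YAP5SA, and *Tppp* had YAP6SA to GFP ratios of 1.36 and 1.63. *AI480526* was at 30.9 and 28.1 CPM in YAP6SA, 19.1 and 16.1 in GFP and 21.2 and 17.0 in YAP5SA, one of the narrowest spreads within groups. *Gm41505* was at 16.9 and 8.44 CPM in YAP6SA, 6.43 and 3.30 in GFP and 10.3 and 3.32 in YAP5SA. The 37 genes lay on 18 of the chromosomes, with 6 on chromosome 7 (16.2%, beside 7.34% of all) and 5 on chromosome 8 (13.5%, beside 5.56%). Only *Ckm* with *A930016O22Rik*, *Fbxl22* with *Ppib* (441836 bases apart) and *Gm43360* with *AI480526* (638815 bases apart) lay within 1000000 bases of each other.

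In 22 lists of processes 3 of the 37 genes were found (8.11%), namely *Acta1*, *Ckm* and *Sik1*, beside 4.42% of all annotated genes at the CPM minimum. None was among the 25 YAP and TEAD targets, of which 22 were tested. Of these 22, 17 were higher in YAP5SA than in GFP and 0 were called in YAP6SA against GFP. Of all genes tested, 12.8% were higher in YAP5SA than in GFP and 0.0450% were higher in YAP6SA than in GFP. At so low a share in YAP6SA, nothing is read from the 0 called. None of the members was among the S phase genes, of which 28 of 37 tested were higher in YAP5SA, or the G2 and M phase genes, of which 36 of 37 tested were. The rule asked for a YAP6SA CPM at least 1.4 times that of YAP5SA in each batch. Genes that stood higher in YAP5SA than in YAP6SA were thereby kept out, so nothing is read from these absences. The median log2 fold change of YAP6SA against GFP was 0.08 for the YAP and TEAD targets, 0.23 for the S phase genes and 0.08 for the G2 and M phase genes, beside 0.0018 for all genes. It was 0.49 for the SRF and MRTF targets, of which 3 of 35 were called higher, 0.35 for the immediate early genes and 0.31 for the 78 respiratory chain genes, of which 0 were called. Genes of the mitochondrial genome took 1.85% and 2.31% of the gene counts in YAP6SA, 1.23% and 1.19% in GFP and 2.08% and 2.90% in YAP5SA. These RNAs are made outside the nucleus, and the part of RNA from outside the nuclei in the levels of the 37 genes was not tested.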

How the data were processed

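Nuclear poly-A RNA of CMs was sequenced in 6 libraries. Reads had been aligned by the authors using STAR (mm10, Ensembl GRCm38.94), and the authors deposited raw counts per gene, neither normalized nor filtered. Reads outside genes, ambiguous between genes, mapped to several places or unmapped (22% to 23.4% per library) were left out. Here, 37 genes were chosen on CPM. The members and gene lists were chosen with earlier results of these data known. Names, classes and coordinates came from GENCODE M21 (54495 of 54532 IDs). The fit used edgeR 4.0.16 under R 4.3.3 (quasi-likelihood test, TMM, terms for group and batch), after a filter on median log2 CPM over 1 in at least 1 group, with a Benjamini-Hochberg threshold of 0.05. Batch pairs the libraries by the labels, and deviations of libraries of 1 batch correlated at 0.368, 0.0985 and 0.175 across genes. No library copied another (chi-square per degree of freedom 25.3 to 39.6). Counting error alone sets the floors given. The fit was tested on simulated data. Members were named when abundant, farthest from or nearest to a limit, in a list or called, and here all 37 are given. Neighbouring genes that are no member were named after their values were seen. Alternatives were other scalings, folds, CPM limits, filters and thresholds, the likelihood ratio test, DESeq2 1.42.0, limma-voom (limma 3.58.1), no batch term, a 4-library fit and each library left out.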

Additional observations from a re-analysis of the deposited data

How the results depend on the processing

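The number of genes that peaked in YAP6SA was 37 and became 73 at a fold of 1.3, 22 at 1.5 and 72 at a CPM minimum of 2. It was 258 to 276 with 1 batch alone, and 6 when the lowest YAP6SA library had to exceed the highest other library by the fold, with no replicate block. Other scalings gave 39 to 42 genes, among them 34 to 36 of the 37.

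For YAP5SA against GFP, no filter gave 2 higher and 7 lower members, and the likelihood ratio test, DESeq2 and a threshold of 0.1 each gave 5 lower, in place of 1 and 3. Of all genes, 7.27% were higher and 5.54% lower with no filter, and 9.1% to 14.2% were lower in the other 3. Without the replicate block 1 was lower, beside 5.7% of all genes. With a library left out, 1 to 2 were higher and 1 to 11 lower, with 11 when the YAP5SA library of batch 1 was left out.

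Members that differed between batches numbered 1, and 0 with DESeq2 size factors, 14 with no filter, 9 by the likelihood ratio test, 6 with DESeq2, 2 at a threshold of 0.1 and 1 to 6 with a library left out. Of all genes, 1.77% differed with no filter, 2.62% by the likelihood ratio test, 1.38% with DESeq2 and 0.525% at a threshold of 0.1. Members called in YAP6SA against GFP numbered 1, and 18 with no filter, 10 by the likelihood ratio test, 7 with DESeq2, 24 in the 4-library fit, 0 without the replicate block and 1 to 19 with a library left out. Of all genes, 0.398%, 0.405%, 0.312% and 1.49% were called higher in the first 4 of these, and 0 without the block. Against YAP5SA they numbered 26, and 7 without the block and 4 to 29 with a library left out. A left-out library leaves 1 in its group, which was taken to vary like the others. The cause of these shifts was not tested. *Sik1* was higher and *Olfr1033* lower in YAP5SA under every alternative that tested them. With 2 libraries per group, no outlying library could be tested for.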
